A study of Mus musculus with 12 samples.

Results

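The 10 genes described here encode 8 subunits of class I phosphoinositide 3-kinase (PI3K) and the 2 classical phospholipase D enzymes. They were chosen by name, through their mouse Ensembl identifiers, and all 10 were found among the 30630 genes listed for each tumor. The tumors were grown from CT-26 cells, a colon carcinoma line of the BALB/c mouse. RNA-Seq values were used for 12 tumors of different mice, 6 of control mice (control group) and 6 of mice that swam (swimming group). All mice were male BALB/c mice of 4 to 6 weeks at purchase, no genotype other than the strain was given, and all carried CT-26 cells injected under the skin of the flank in Matrigel. No training is described for the control mice. Mice of the swimming group had 2 swims a day of at most 30 min on 6 days of each week, until the tumors were taken after 3 weeks. Each group had 10 mice, so not every tumor was sequenced. The comparison asks whether the RNA levels of these lipid signaling enzymes, taken per gene, differ in tumors of mice that swam. The values used are not split by transcript, so a change in single transcripts of a gene could not be seen and was not tested. The paper reports its own differences per transcript. From these it names PIK3R2 and PLD2 among genes with significantly lower expression in the swimming group. The values per gene used here cannot test that statement.

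Class I PI3K converts the membrane lipid PIP2 into PIP3, which recruits the kinase AKT and turns on growth signaling through mTOR. Class IA enzymes pair a p110 catalytic subunit (encoded by Pik3ca, Pik3cb or Pik3cd) with a p85-type regulatory subunit (Pik3r1, Pik3r2 or Pik3r3), which binds activated receptor tyrosine kinases. The class IB enzyme pairs p110γ (Pik3cg) with p101 (Pik3r5) or p84 and responds to G protein-coupled receptors. Phospholipase D cleaves phosphatidylcholine into choline and phosphatidic acid, a lipid messenger that also feeds into mTOR signaling. Pik3ca is a frequently mutated oncogene in human colorectal cancer, and p110δ and p110γ are best known from leukocytes.

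The authors deposited 1 FPKM value per gene and tumor, which relates the reads of a gene to its length and to the depth of the library. Levels of different genes can therefore be set side by side, but read numbers and absolute depth are unknown. Relative depth was estimated from the most common ratio between low FPKM values of control 1, the deepest by this estimate, and those of each tumor. The estimate was lowest in control 2 (0.694) and at least 0.871 elsewhere. The sum of all FPKM values was between 380139 and 407109. Of the colon epithelium markers, Krt20 (99.8 to 194 FPKM), Krt18 and Krt8 were present, while Epcam, Cdh1, Cdx2, Vil1 and Krt19 stayed below 1 FPKM in all 12 tumors. Krt8 was uneven, with 129 FPKM in control 4 and at most 19.9 FPKM (control 6) in the other tumors. All 12 leukocyte markers and 11 of 12 fibroblast markers had a median of at least 1 FPKM, so each value is that of a mixture of tumor and host cells. In such bulk samples, fewer cells of a type and less RNA per cell cannot be told apart.

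The promoters of 4 of the genes are shown because Pik3r5 and Pld2 varied together over the tumors, Pik3r2 had the highest level and Pik3cg is a gene known from leukocytes. RefSeq (GRCm38.p6) lists 18 promoter windows for the 10 genes, and for each of the 4 genes the 250 bases before a transcript start with the most CpG dinucleotides are given, from 5′ to 3′ on the strand of the gene. Capitals mark GGGCGG (GC box), GAGGAA (an ETS core with a PU.1-type flank) and TATAAA (a core promoter motif), searched on both strands, and no matches overlapped in these 4 windows. These motifs occur in 32.7%, 23.3% and 12.4% of all 32851 windows of this length.
Pik3r5 (plus strand, chr11:68431875-68432124): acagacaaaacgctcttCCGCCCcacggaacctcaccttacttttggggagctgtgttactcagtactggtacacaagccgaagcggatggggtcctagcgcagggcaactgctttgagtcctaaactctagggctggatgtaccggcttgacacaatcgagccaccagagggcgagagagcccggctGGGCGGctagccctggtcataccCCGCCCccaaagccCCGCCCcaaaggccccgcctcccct
Pld2 (plus strand, chr11:70540022-70540271): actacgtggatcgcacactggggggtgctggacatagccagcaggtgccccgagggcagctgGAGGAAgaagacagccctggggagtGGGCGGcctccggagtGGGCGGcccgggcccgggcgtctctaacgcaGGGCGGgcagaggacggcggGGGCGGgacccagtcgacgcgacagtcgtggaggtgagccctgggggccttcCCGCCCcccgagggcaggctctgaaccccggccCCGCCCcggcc
Pik3r2 (minus strand, chr8:70776713-70776962): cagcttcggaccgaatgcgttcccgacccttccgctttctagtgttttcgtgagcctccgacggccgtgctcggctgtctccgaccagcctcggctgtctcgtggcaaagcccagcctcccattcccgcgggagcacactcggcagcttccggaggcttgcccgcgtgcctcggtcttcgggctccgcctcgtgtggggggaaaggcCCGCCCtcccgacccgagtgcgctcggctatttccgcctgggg
Pik3cg (minus strand, chr12:32208471-32208720): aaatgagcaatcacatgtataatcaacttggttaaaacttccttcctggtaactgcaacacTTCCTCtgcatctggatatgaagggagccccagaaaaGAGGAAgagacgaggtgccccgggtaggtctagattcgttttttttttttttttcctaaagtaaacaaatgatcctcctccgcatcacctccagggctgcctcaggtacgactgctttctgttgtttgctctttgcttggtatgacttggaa
GC boxes were found 4 times in the window of Pik3r5, 6 times in that of Pld2, 1 time in that of Pik3r2 and 0 times in that of Pik3cg, which held GAGGAA 2 times. The windows had 14, 23, 29 and 5 CpG dinucleotides in the same order, against a median of 6 over all windows. For Pld2 and Pik3cg the shown window was chosen for its CpG number, so this is not an even comparison. The window of Pld2 also held GAGGAA 1 time. Another window of Pld2, which overlaps the one shown, held 0 GC boxes, 1 GAGGAA and 17 CpG dinucleotides. The other, overlapping window of Pik3cg held 0 of both motifs and 3 CpG dinucleotides. By the gene coordinates given below, most bases of the shown windows of Pld2 and Pik3cg lie inside the annotated gene. These genes begin at position 70540064 (Pld2, plus strand) and 32208659 (Pik3cg, minus strand), and the windows precede a transcript start further inside. A match describes the letters in the window and not a bound site.

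Over the 12 tumors, the levels of the 10 genes ranged from 29.2 ± 1.44 FPKM for Pik3r2 to 1.05 ± 0.276 FPKM for Pik3r3 (mean ± SD, n = 12). The median of the 19018 genes tested was 3.36 FPKM, and 89.7% of these genes had a lower mean than Pik3r2. Pik3r1 (10.3 FPKM) came next, followed by Pik3ca (7.09), Pik3cb (6.28), Pld2 (5.47), Pik3cd (4.20), Pik3r5 (2.95), Pld1 (2.11) and Pik3cg (1.85). Pik3r2 was 2.84 times the level of Pik3r1 in the mean and higher in 12 of 12 tumors, and these were the only neighbors in the order whose ranges over the tumors did not overlap. Pik3cd was also above Pik3r5 in 12 of 12 tumors although their ranges overlap. The order of Pik3ca and Pik3cb held in 9 of 12 tumors, and that of Pld1 and Pik3cg in 8 of 12.

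**Figure D1:**
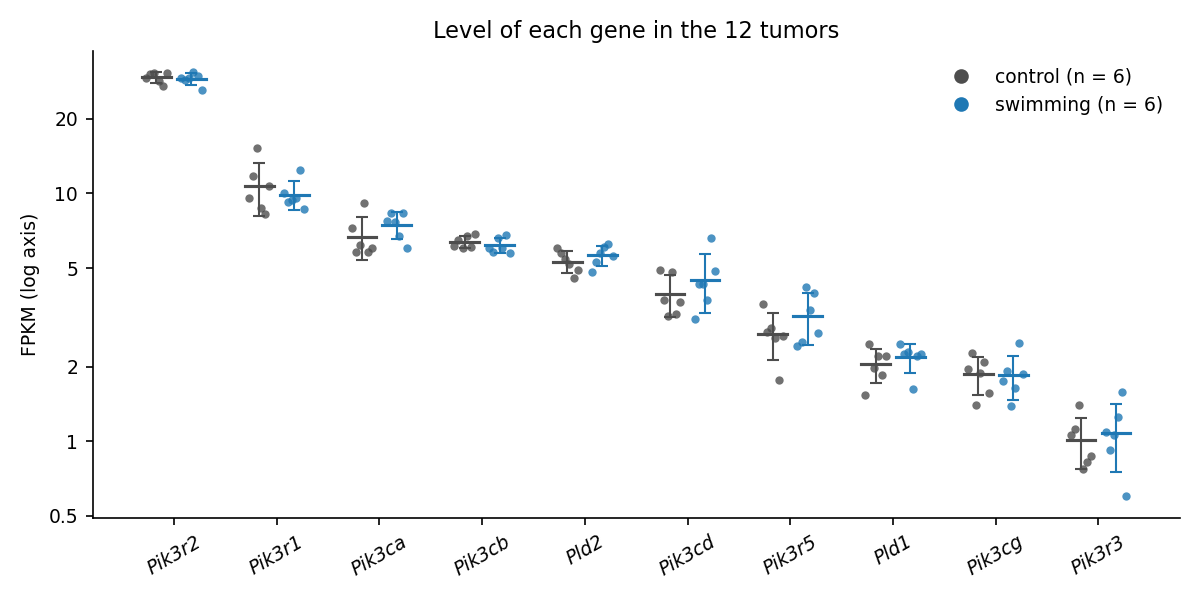
FPKM (log axis) of the 10 genes in each of the 6 control (grey) and 6 swimming (blue) tumors, with the mean as a line and the SD as a bar, in order of level. The points of both groups overlap for every gene, and Pik3r2 stands above the rest in all tumors.

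The groups were compared on log2(FPKM + 1) with limma's moderated test and Benjamini-Hochberg adjustment, over the 19018 genes that reached 0.1 FPKM in 6 or more tumors. A fold change on this scale understates the change of genes with low values. All 10 genes passed this filter. At an adjusted p below 0.05, limma called 0 of the 10 genes and 0 of all genes tested (0%), and the smallest adjusted p of any gene was 0.204. At an unadjusted p below 0.05 it also found 0 of the 10 genes, against 1058 (5.56%) of all genes, 3.11% higher and 2.46% lower in the swimming group. The values of the 2 groups overlapped for all 10 genes, while 0.147% of all genes showed no overlap. In the swimming group, 6 of the 10 genes had a higher and 4 a lower mean on the log2 scale, with a median log2 fold change of 0.06 against 0.004 for all genes, of which 51.7% were higher. For each of the 10 genes the means of the groups were less than 1 SD apart, whichever group the SD was taken from. In limma's test the unadjusted p was between 0.200 and 0.920 and the adjusted p between 0.917 and 0.992. The 924 possible divisions of the tumors gave two-sided exact permutation p-values between 0.227 and 0.920, where 0.00216 is the smallest possible.

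**Figure D2:**
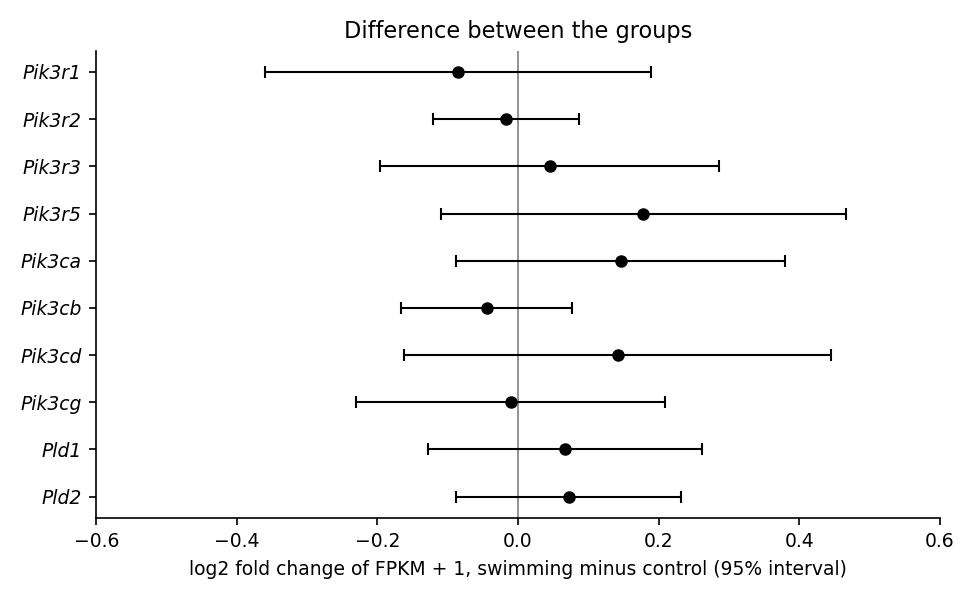
Log2 fold change of FPKM + 1, swimming minus control, with its 95% interval from limma for each of the 10 genes. Every interval includes 0, and they reach from -0.36 (Pik3r1) to 0.47 (Pik3r5).

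Pik3r2 (ENSMUSG00000031834, GRCm38 chr8:70768176-70776713, minus strand) encodes p85β, which stabilizes p110 and holds it inactive until a receptor is bound. Its lowest, median and highest values were 27.1, 29.7 and 30.5 FPKM in control tumors and 26.1, 29.2 and 30.9 FPKM in swimming tumors. These were the most even values of the 10 genes, with an SD of 4.94% of the mean over the 12 tumors. The group means were 29.3 ± 1.40 and 29.0 ± 1.60 FPKM (SD, n = 6 each). The log2 fold change was -0.02 (SE 0.05), with a 95% interval from -0.12 to 0.09, or from -8.06% to 6.18% of FPKM + 1. Limma's unadjusted p was 0.724. The 45 exonic bases shared with 6330537M06Rik, a gene on the opposite strand at 0.481 FPKM in the control group, are 1.08% of the exons of Pik3r2.

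Pik3r1 (ENSMUSG00000041417, chr13:101680563-101768217, minus strand) encodes p85α, with p55α and p50α from shorter transcripts. Values in the control group were 8.24 FPKM at the lowest, 10.1 at the median and 15.2 at the highest, and those in the swimming group 8.62, 9.48 and 12.4 FPKM. Control 3 was highest of all tumors, and 5 of the 6 swimming tumors lay at or below 9.996 FPKM. The means were 10.7 ± 2.55 and 9.87 ± 1.33 FPKM, with a log2 fold change of -0.09 (SE 0.13, 95% interval from -0.36 to 0.19). Limma's unadjusted p was 0.511.

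Pik3r3 (ENSMUSG00000028698, chr4:116221618-116303056, plus strand), which encodes p55γ, had the lowest level of the 10 genes and the largest spread, 26.3% of the mean. The control tumors lay between 0.771 and 1.40 FPKM with a median of 0.969, and the swimming tumors between 0.600 and 1.58 FPKM with a median of 1.07. The 2 ends of the range over all tumors were therefore both in the swimming group, in swimming 6 and swimming 5. Its log2 fold change was 0.05 (SE 0.11, 95% interval from -0.20 to 0.29), with an unadjusted p of 0.693 in limma's test. Of its exonic bases, 24.3% are shared with Gm49337 on the same strand, a gene not analysed here, and how the authors' counting divides such reads is not given in the sources used here.

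Together, the p85-type subunits summed to 41.0 ± 3.95 FPKM in control tumors and 39.9 ± 2.84 FPKM in swimming tumors. Pik3r2 made up 71.8 ± 3.84% of this sum in control tumors and 72.7 ± 2.38% in swimming tumors, and between 64.8% and 75.0% in single tumors. The shares of Pik3r1 were 25.8 ± 3.56% and 24.7 ± 1.96%, and those of Pik3r3 2.44 ± 0.370% and 2.68 ± 0.642%. Most p85-type RNA in every tumor was thus from Pik3r2, and the group means of each share differed by less than the SD of the control group.

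Pik3ca (ENSMUSG00000027665, chr3:32397671-32468486, plus strand) encodes p110α, which acts downstream of growth factor receptors and RAS. The control tumors had 5.81 FPKM at the lowest, 6.09 at the median and 9.14 at the highest, and the swimming tumors 6.003, 7.71 and 8.36 FPKM. The highest value of all was in a control tumor (control 4), while 5 of 6 swimming tumors were above the control median. The means were 6.70 ± 1.31 and 7.47 ± 0.940 FPKM, and the log2 fold change was 0.15 (SE 0.11, 95% interval from -0.09 to 0.38, unadjusted p = 0.200 in limma's test). Without control 4, the log2 fold change was 0.23 with an unadjusted p of 0.0229 in limma's test. The adjusted p of Pik3ca was at least 0.796 in all alternatives computed.

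Pik3cb (ENSMUSG00000032462, chr9:99036654-99140621, minus strand) encodes p110β, which also takes signals from G protein-coupled receptors. Its values were nearly as even as those of Pik3r2, with an SD of 6.16% of the mean. The lowest, median and highest values were 6.03, 6.33 and 6.88 FPKM in control tumors and 5.77, 6.03 and 6.77 FPKM in swimming tumors. With means of 6.39 ± 0.356 and 6.17 ± 0.415 FPKM, the log2 fold change was -0.04 (SE 0.06, 95% interval from -0.17 to 0.08), and limma's unadjusted p was 0.439.

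Pik3cd (ENSMUSG00000039936, chr4:149649168-149702571, minus strand) encodes p110δ, the isoform of lymphocytes and myeloid cells. Control tumors lay between 3.20 and 4.92 FPKM with a median of 3.69, and swimming tumors between 3.10 and 6.59 FPKM with a median of 4.30. Swimming 5 was the highest and swimming 1 the lowest of all 12 tumors, so the swimming group spans the control group on both sides. The means were 3.92 ± 0.755 and 4.48 ± 1.20 FPKM. Its log2 fold change of 0.14 (SE 0.14, 95% interval from -0.16 to 0.44, unadjusted p = 0.331 in limma's test) was 0.04 without swimming 5 and 0.22 without swimming 1.

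Pik3cg (ENSMUSG00000020573, chr12:32173473-32208659, minus strand) encodes p110γ, the catalytic subunit of class IB. The control values had a lowest of 1.39, a median of 1.92 and a highest of 2.27 FPKM, against 1.39, 1.81 and 2.50 FPKM in the swimming group. These are close to each other at each of the 3 points, and the log2 fold change was -0.01 (SE 0.10, 95% interval from -0.23 to 0.21, unadjusted p = 0.920 in limma's test).

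Its partner Pik3r5 (ENSMUSG00000020901, chr11:68432121-68497849, plus strand) encodes p101, which ties p110γ to the βγ subunits of G proteins. The lowest, median and highest values were 1.76, 2.70 and 3.57 FPKM in control tumors and 2.43, 3.06 and 4.17 FPKM in swimming tumors. Control 5 was below all other tumors, and swimming 3 and swimming 5 were above all control tumors. Means of 2.70 ± 0.580 and 3.20 ± 0.750 FPKM gave the largest log2 fold change of the 10 genes, 0.18 (SE 0.13, 95% interval from -0.11 to 0.47). The unadjusted p was 0.205 in limma's test. Without control 5 the log2 fold change was 0.097, below those of Pik3ca (0.114) and Pik3cd (0.102) in the same fit, and without swimming 3 it was 0.114, below 0.137 for Pik3ca and 0.146 for Pik3cd.

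The 4 catalytic subunits summed to 18.9 ± 2.16 FPKM in control tumors and 19.97 ± 2.27 FPKM in swimming tumors. Pik3ca made up 35.3 ± 3.15% and 37.5 ± 3.59% of this sum, Pik3cb 34.1 ± 3.30% and 31.1 ± 2.31%, Pik3cd 20.7 ± 1.97% and 22.2 ± 3.93%, and Pik3cg 9.92 ± 1.89% and 9.20 ± 1.19%. The share of Pik3cb was between 28.0% and 38.0% in single tumors. Its highest values, 38.0%, 35.9%, 35.5% and 35.3%, were all in control tumors. The other control tumors had 30.4% and 29.7%, within the range of the swimming tumors (28.0% to 33.4%). The p85-type sum was 2.45 ± 0.423 times the class IA catalytic sum in control tumors and 2.22 ± 0.201 times in swimming tumors. It was above the catalytic sum in all tumors, from 1.84 to 3.06 times. These are ratios of RNA levels, and no test was made of the shares.

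**Figure D3:**
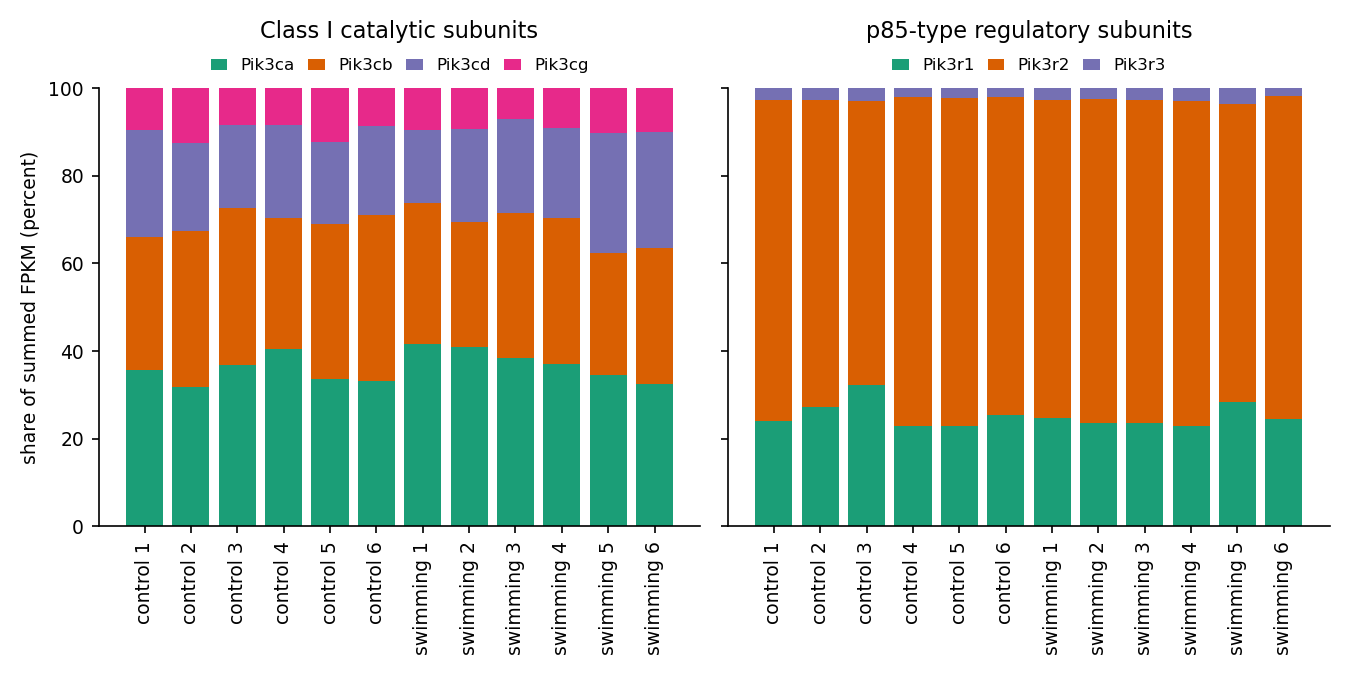
Share of each class I catalytic subunit (left) and each p85-type regulatory subunit (right) in the summed FPKM of its class, in percent, for each of the 12 tumors. Pik3ca and Pik3cb take similar shares of the catalytic sum, and Pik3r2 takes between 64.8% and 75.0% of the p85-type sum.

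Pld1 (ENSMUSG00000027695, chr3:27938695-28133362, plus strand) encodes the phospholipase D that is turned on by ARF proteins and by protein kinase C. The control tumors had 1.54 FPKM at the lowest, 2.09 at the median and 2.47 at the highest, and the swimming tumors 1.62, 2.24 and 2.47 FPKM. In the swimming group 5 of 6 tumors lay within 2.21 to 2.47 FPKM, and swimming 4 lay below them. The log2 fold change was 0.07 (SE 0.09, 95% interval from -0.13 to 0.26), with an unadjusted p of 0.470 in limma's test.

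Pld2 (ENSMUSG00000020828, chr11:70540064-70558110, plus strand) encodes the phospholipase D of the plasma membrane, which has a higher activity at rest. Its lowest, median and highest values were 4.56, 5.31 and 6.02 FPKM in control tumors and 4.81, 5.66 and 6.24 FPKM in swimming tumors. Tumors of both groups were found at either end of the range. The means were 5.31 ± 0.529 and 5.63 ± 0.526 FPKM, with a log2 fold change of 0.07 (SE 0.07) and a 95% interval from -0.09 to 0.23. This interval corresponds to -5.89% to 17.4% of FPKM + 1, and limma's unadjusted p was 0.348. Gm10418, a pseudogene on the opposite strand at 2.83 FPKM in control tumors and 3.05 FPKM in swimming tumors, shares 7.01% of the exonic bases of Pld2, and whether strand was used in counting is not given in the sources used here.

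Pld2 was the more abundant phospholipase D in all 12 tumors. It made up 72.2 ± 3.90% of the summed FPKM of both genes in control tumors and 72.0 ± 4.28% in swimming tumors. The ratio of Pld2 to Pld1 ranged from 1.94 in swimming 1 to 3.91 in control 1.

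Tumors of the same group differed by more than the means of the groups, and each gene was compared with leukocyte and fibroblast scores, the mean log2(FPKM + 1) of 12 marker genes each after subtraction of the mean of each gene. Exact permutation tests, two-sided, compared the scores between the groups. The leukocyte score of swimming tumors was 0.12 higher (exact p = 0.247), and the fibroblast score 0.07 higher (exact p = 0.827). Summed leukocyte markers were between 349 and 500 FPKM in control tumors and between 403 and 485 FPKM in swimming tumors, and summed fibroblast markers between 225 and 901 and between 269 and 879 FPKM. Not every marker followed its score, and which cells made the markers was not tested. Dcn was 51.7 FPKM in control 4 (fibroblast score -0.44) and 25.1 FPKM in swimming 5, which had the highest fibroblast score (0.998). Arhgdib (114.6 to 153.5 FPKM), the largest part of the leukocyte sum, was 116.6 FPKM in swimming 5, where the leukocyte score was highest (0.27). Lcp1 was highest in swimming 1 (21.9 FPKM, leukocyte score -0.17). In total, 20 relations were computed as Pearson's r and Spearman's rho with 100000 permutations each and adjusted together.

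Pik3cd followed the leukocyte score, with r = 0.93 (permutation p = 1e-05, the smallest possible, adjusted p = 0.0002) and rho = 0.90 (permutation p = 0.00013, adjusted p = 0.0026). The relation was r = 0.98 within the control group (exact permutation p = 0.00417) and r = 0.93 within the swimming group (exact permutation p = 0.0139). Without control 3 and swimming 5, the 2 tumors farthest from the median score, r was 0.94 (permutation p = 0.00025). Pik3cg, the other catalytic subunit known from leukocytes, had r = 0.35 and rho = 0.26 with the same score, with adjusted permutation p-values of 0.45 and 0.6. Pik3r5 (r = 0.63), Pld2 (r = 0.60) and Pik3ca (r = 0.59) each had an adjusted permutation p of 0.137. Whether Pik3cd is more closely related to the score than Pik3cg was not tested.

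With the fibroblast score, Pik3r5 had r = 0.80 (permutation p = 0.00142, adjusted p = 0.0142) and rho = 0.83 (permutation p = 0.00175, adjusted p = 0.0175). Its r was 0.81 within the control group (exact permutation p = 0.0514) and 0.87 within the swimming group (exact permutation p = 0.0181). Without control 1 and swimming 5 its r was 0.74 (permutation p = 0.0106). Pld2 had r = 0.75 (permutation p = 0.006, adjusted p = 0.04) and rho = 0.78 (permutation p = 0.00398, adjusted p = 0.0265). Its r was 0.83 within the control group (exact permutation p = 0.0431) and 0.70 within the swimming group (exact permutation p = 0.118). Without the same 2 tumors its r was 0.60 with a permutation p of 0.071, so that the relation of Pld2 rests in part on them. Without these tumors, neither relation passed the adjustment over the 20 relations. With the other 8 genes, r was between -0.16 and 0.58 and the adjusted permutation p at least 0.137. Within the swimming group Pik3cb had r = 0.96 with the fibroblast score, against 0.06 within the control group, and this difference was not tested. A skeletal muscle score from 8 markers was added after the values had been seen, with its 10 relations adjusted together with the 20 others. Endothelial, colon epithelium and adipocyte markers were also scored, but their relations to the 10 genes were not tested. The adjustment does not cover this choice of the skeletal muscle score. Pik3cb followed this score with r = 0.83 (permutation p = 0.00103, adjusted p = 0.0142) and rho = 0.83 (permutation p = 0.00168, adjusted p = 0.0175). The r was 0.90 within the control group (exact permutation p = 0.00417) and 0.95 within the swimming group (exact permutation p = 0.00139). Without swimming 5 and swimming 6, the tumors farthest from the median score, r was 0.75 (permutation p = 0.0136, adjusted p = 0.136). The summed muscle markers were between 1.74 and 178 FPKM in control tumors and between 1.27 and 249.7 FPKM in swimming tumors, and the score was 0.38 higher with swimming (exact permutation p = 0.654). For the other 9 genes the adjusted permutation p with the muscle score was at least 0.107. The part of these cell types in the group differences was not tested.

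**Figure D4:**
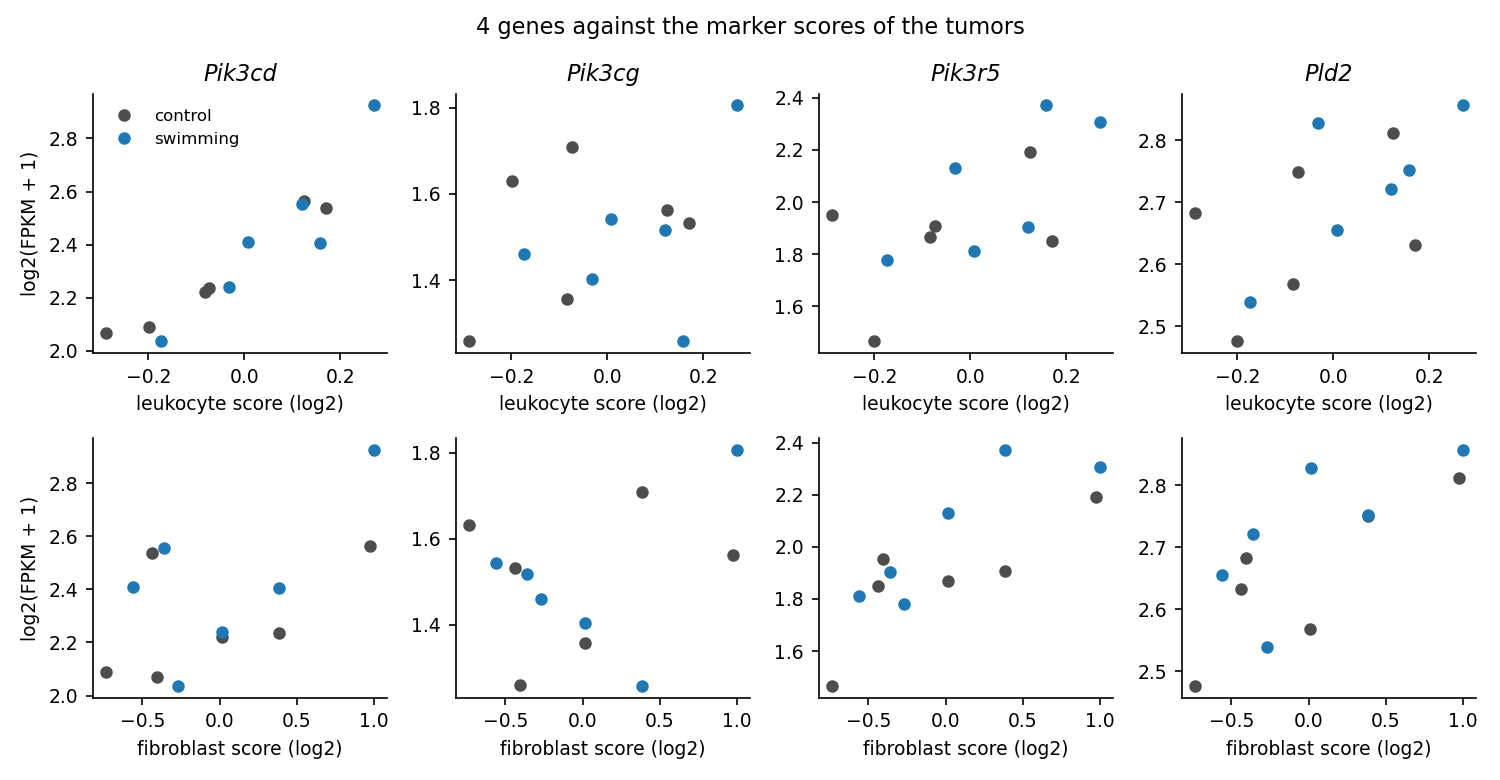
Log2(FPKM + 1) of Pik3cd, Pik3cg, Pik3r5 and Pld2 in the 12 tumors against the leukocyte score (upper row) and the fibroblast score (lower row), with control tumors in grey and swimming tumors in blue. Pik3cd rises with the leukocyte score in both groups (r = 0.93), and Pik3r5 and Pld2 with the fibroblast score (r = 0.80 and 0.75).

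Among the 45 pairs of the 10 genes, r was between -0.27 (Pld1 and Pld2) and 0.86, with 34 pairs above 0. Pik3r5 and Pld2 were the only pair past the adjustment by r, with r = 0.86 (permutation p = 0.00024, adjusted p = 0.0108) and rho = 0.90 (permutation p = 0.00013, adjusted p = 0.00585). Their r was 0.90 within the control group, 0.79 within the swimming group and 0.88 without control 5 and swimming 3. Both genes lie on chromosome 11, and their promoters, given above, were chosen for this relation. By rho, the 3 pairs of the p85-type genes also passed, with rho = 0.85 for Pik3r1 and Pik3r2 (adjusted permutation p = 0.0164), 0.84 for Pik3r1 and Pik3r3 (adjusted permutation p = 0.0174) and 0.78 for Pik3r2 and Pik3r3 (adjusted permutation p = 0.0475). Without the 2 tumors farthest from the median of the first gene of each pair, r was 0.77, 0.56 and 0.51 in this order. The permutation p-values of these were 0.0105, 0.0897 and 0.136. The pairs were computed after the values had been seen. The p101 gene Pik3r5 and its catalytic partner Pik3cg were not among the pairs that passed.

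Among 12779 genes with a mean of at least 1 FPKM, the 3 most like each of the 10 genes over the 12 tumors are given here by their Pearson r as a description. These are the highest of 12779 values over only 12 tumors, and how high they would be by chance was not tested. For Pik3cd it was Nfatc2 (r = 0.97), a transcription factor of activated T cells, followed by Stk39 (0.95) and by Pld4 (0.94). Pld4 belongs to the phospholipase D family by sequence and is known as an exonuclease of myeloid and dendritic cells. It had a mean of 15.5 FPKM over the tumors, above Pld1 and Pld2. Pik3cg was most like C1qc (r = 0.84), a complement gene of macrophages, Fam234b (0.84) and Itga9 (0.83). Pik3ca was most like Ptpn7 (r = 0.97), a phosphatase of lymphocytes, Ostm1 (0.90) and Mfn2 (0.89). Pld2 was most like Atxn7l1 (r = 0.97), Mcm5 (0.93), a helicase subunit of DNA replication, and Supt4a (0.92). Pik3r5 was most like Arrdc1 (r = 0.94), Sf3b2 (0.93) and Oasl2 (0.92). For Pik3cb these were Rrp1b (r = 0.91), Myh2 (0.90), a myosin of skeletal muscle, and Ctla2b (0.89). Among the p85-type genes they were Tbc1d7 (r = 0.92), Ift81 (0.91) and Ap1g1 (0.89) for Pik3r1, Hsd17b11 (0.92), Srpk2 (0.91) and Mfsd4b4 (0.88) for Pik3r2, and Sephs1 (0.94), Bpgm (0.93) and Epb41l2 (0.92) for Pik3r3. Pld1 was most like Ogt (r = 0.89), Ccnt2 (0.87) and Gse1 (0.86).

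Genes around PI3K and phospholipase D were described in 7 lists with 101 genes, of which 93 were tested. Limma called 0 of them at an adjusted p below 0.05. At an unadjusted p below 0.05, 1 gene was higher and 3 genes lower with swimming, or 4 of 93 against 5.56% of all genes. Over the 93 genes the log2 fold change had a median of 0.02, with 60 above and 33 below 0, where 51.7% of all genes tested were above 0.

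Of the 23 genes of the AKT and mTOR branch, 2 were lower at an unadjusted p below 0.05 and 0 were higher, with a list median of 0.02. Foxo1 (ENSMUSG00000044167) encodes a transcription factor that AKT keeps out of the nucleus. It was between 3.29 and 4.19 FPKM in the control group, with a median of 3.90, and between 2.71 and 3.49 FPKM in the swimming group, with a median of 3.00. Only swimming 1 reached into the range of the control tumors, and the means were 3.81 ± 0.323 and 3.03 ± 0.260 FPKM. The log2 fold change was -0.25 (SE 0.07, 95% interval from -0.40 to -0.11), and limma gave an unadjusted p of 0.00239 (adjusted p = 0.889). A two-sided exact permutation test gave p = 0.00433. The difference thus fails the adjustment over all genes, and across all alternatives the adjusted p of Foxo1 was between 0.221 and 0.997.

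Sgk1 (ENSMUSG00000019970), a kinase related to AKT that is also turned on by glucocorticoids, was between 12.1 and 35.2 FPKM in control tumors and between 10.8 and 13.3 FPKM in swimming tumors. Control 1 (35.2) and control 2 (30.1) were far above the other tumors. The log2 fold change was -0.64 (SE 0.23, 95% interval from -1.14 to -0.15), and limma gave an unadjusted p of 0.0151 (adjusted p = 0.889). Without control 1 the log2 fold change was -0.46. The two-sided exact permutation p was 0.00433.

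Of 19 receptors and adaptors upstream of PI3K, 1 was higher at an unadjusted p below 0.05, with a list median of 0.01. This was Igf1r (ENSMUSG00000005533), the receptor for insulin-like growth factors, with 9.25 ± 0.677 FPKM in control tumors and 10.1 ± 0.405 FPKM in swimming tumors. The log2 fold change was 0.12 (SE 0.05), and limma gave an unadjusted p of 0.0397 (adjusted p = 0.889). With 1 tumor left out, limma's unadjusted p ranged from 0.017 to 0.0924 and was not below 0.05 in 5 of 12 cases (without control 1, control 5, swimming 2, swimming 3 or swimming 6). Of 10 negative regulators, 9 had a positive log2 fold change and 0 passed an unadjusted p of 0.05 in limma's test, with a median of 0.06. The positive share over all genes was 51.7%, and whether this list differs from it was not tested. Among 6 tested genes of the other PI3K classes and adaptors, 0 passed an unadjusted p of 0.05 in limma's test. The smallest p there was that of Pik3ap1, the B cell adaptor BCAP, at 7.48 and 9.95 FPKM (log2 fold change 0.34, unadjusted p = 0.066).

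On the phospholipase D side, 18 of 22 genes of phosphatidic acid metabolism were tested, with 7 above and 11 below 0 and a median log2 fold change of -0.02. Plpp2 (ENSMUSG00000052151), a phosphatase that removes the phosphate from phosphatidic acid, was the only one at an unadjusted p below 0.05. It was between 28.4 and 33.7 FPKM in control tumors and between 19.4 and 29.7 FPKM in swimming tumors, so the groups overlap. The log2 fold change was -0.23 (SE 0.09, 95% interval from -0.41 to -0.04), and limma gave an unadjusted p of 0.0226 (adjusted p = 0.889). Limma's unadjusted p was 0.0528 without control 4, and the log2 fold change was -0.15 without swimming 4. Of 14 activators of phospholipase D, 0 passed an unadjusted p of 0.05 in limma's test, and Cyth3, an exchange factor for ARF proteins, had the smallest (log2 fold change -0.10, unadjusted p = 0.0785). In a list of 6 other genes named for phospholipase D, not all of 1 family, 3 were tested (Pld3, Pld4 and Napepld), with a median of 0.07. The smallest unadjusted p in limma's test, 0.346, was that of Napepld, which makes N-acylethanolamines.

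**Figure D5:**
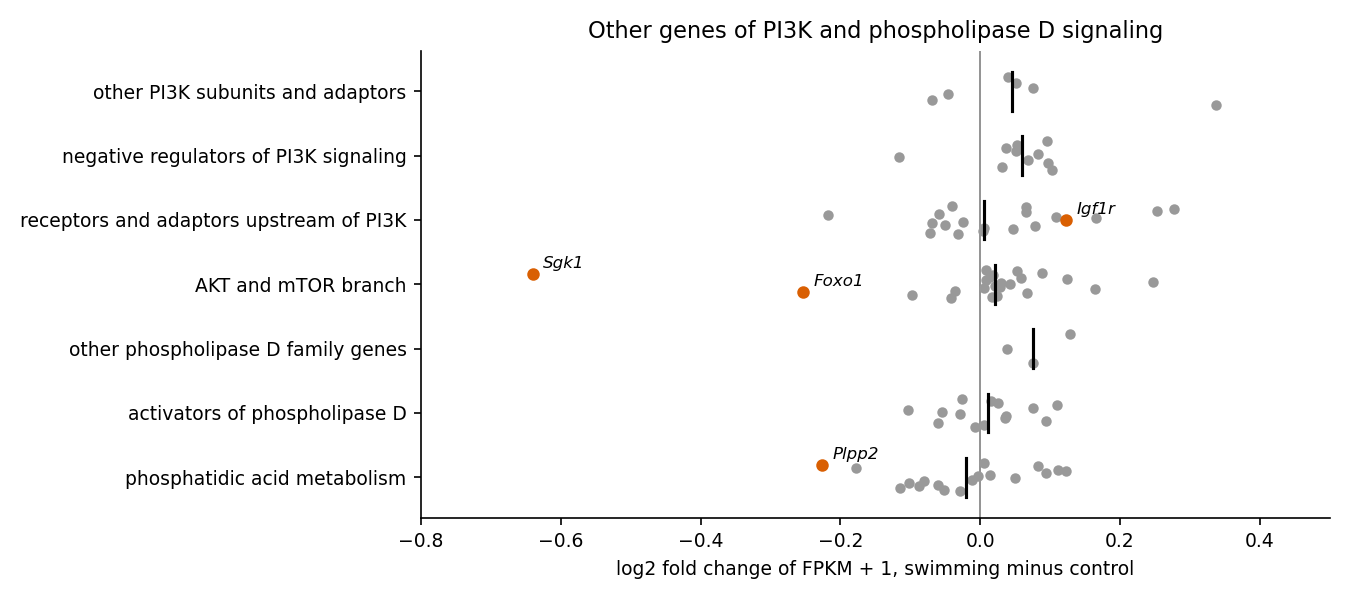
Log2 fold change of FPKM + 1, swimming minus control, for each of the 93 tested genes in the 7 lists, with the median of each list as a black line. The 4 genes at an unadjusted p below 0.05 are in orange with their names (Igf1r higher, Sgk1, Foxo1 and Plpp2 lower), and the medians lie between -0.02 and 0.07.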

How the data were processed

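Libraries were depleted of ribosomal RNA, and the submitters' processing notes name HISAT2 2.0.5 and StringTie 1.3.3. The values deposited by the authors are FPKM per gene. The methods name hg38 and the notes hg38 and GRCm38, while the identifiers are mouse, so coordinates (GENCODE M21, GRCm38) were matched by identifier only.

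Groups were compared in R 4.3.3 with limma 3.58.1 (lmFit, then eBayes with its trend option), with a pseudocount of 1 and no covariate. Correlations and exact tests were computed in Python 3.11.15 with scipy 1.17.1. The fit was tested on simulated data. Genes were named as the 10 members, genes of the lists at an unadjusted p below 0.05 or, failing that, with the smallest p, the 3 genes most like each member, and overlapping genes. One gene that this rule names is not reported here. The members and lists were chosen with earlier results of these data known. Alternatives were other pseudocounts, filters, scalings, fits and left-out tumors. The labels name no batch, and each replicate is a tumor of a different mouse. Counting error remains in the FPKM values and could not be estimated, because read numbers are unknown.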

Additional observations from a re-analysis of the deposited data

Results flagged for a closer look

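In 4 of 36 groups of 6 tumors, looked at for 18 genes (the 10 genes and the 8 named genes of the lists), 1 tumor stood apart by Dixon's ratio, where chance gives about 1 in 20 groups, or 1.8 of 36. Pik3r1 was 12.4 FPKM in swimming 5, against 8.62 to 9.996 FPKM in the other swimming tumors. Pld1 was 1.62 FPKM in swimming 4, against 2.21 to 2.47 FPKM in the others. Sgk1 was 13.3 FPKM in swimming 1, against 10.8 to 11.4 FPKM in the others. Plpp2 was 33.7 FPKM in control 4, against 28.4 to 29.6 FPKM in the other control tumors.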

How the results depend on the processing

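The log2 fold changes of the 10 genes kept their direction in 50 of 50 values under a pseudocount of 0.1 or 0.01, equal FPKM sums, quantile normalization and array weights, and in 112 of 120 cases with 1 tumor left out. Other filters, eBayes without trend and the replicate block leave the fold change as it is and bear on p only. With 1 tumor left out, the log2 fold change ranged from -0.15 to 0.013 for Pik3r1, from -0.039 to 0.012 for Pik3r2, from -0.020 to 0.12 for Pik3r3 and from -0.072 to 0.037 for Pik3cg, all of which changed sign. The number of the 10 genes at an unadjusted p below 0.05 was 0 to 1 (Pik3ca without control 4), and that of all genes called at an adjusted p below 0.05 was 0 to 3 (3 without control 4, 2 without swimming 1) and 1 with array weights. With the replicate block, 0 of the 10 genes and 0 of all genes were called by limma, and 892 genes had an unadjusted p below 0.05, and Plpp2 had an unadjusted p of 0.0598. Same-numbered tumors, from different mice, were correlated over the genes tested after subtraction of the group mean of each gene. The mean correlation was -0.12, with 0 of 6 pairs above 0.1, so the numbers were not taken as pairs. Without the 2 tumors farthest from the median score, 0 genes in place of 2 were related to the fibroblast score after adjustment. With the skeletal muscle score, 1 gene was related, and 0 without the 2 tumors farthest from its median. With equal FPKM sums, 3 pairs in place of 1 were related by r, an alternative chosen after seeing the data. These were Pik3r1 with Pik3r3, Pik3r2 with Pik3r3, and Pik3r5 with Pld2. By rho, Pik3r2 with Pik3r3 did not pass under equal sums (rho = 0.71, adjusted permutation p = 0.143). The cause of these changes was not tested.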
